A study of Mus musculus with 4 samples.

Results

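The regions described here are places of the mouse genome where S9.6 CUT&Tag gave a called interval after both hairpins against Ube2t and none in control cells. S9.6 is an antibody against RNA:DNA hybrids, and CUT&Tag uses a transposase tethered to an antibody to tag the DNA beside it. The distinct called intervals of the 3 S9.6 libraries were merged where they touched or overlapped. A merged region was kept when it held an interval of both hairpin libraries, none of the control library, and overlapped no interval of a library made without primary antibody. This left 224 of 2773 merged S9.6 regions (8.08%), called gained regions below. They held 224 intervals of the shUbe2t #1 library and 226 of the shUbe2t #2 library. Another 10 regions had the same calls but overlapped a no-antibody interval and were left out. Among other regions free of no-antibody intervals, 82 were of the control and shUbe2t #1, 112 of the control and shUbe2t #2, and 210 of all 3. A single S9.6 library called 586 (shUbe2t #1), 679 (shUbe2t #2) and 436 (control).

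The study profiled P19, an embryonal carcinoma cell line of mouse embryo origin, to ask how UBE2T bears on the removal of R-loops. The series has 4 libraries, each the only one of its condition. P19 cells of wild-type genotype carried a control adenovirus (shCtrl) and were profiled once with S9.6 and once without primary antibody, and Ube2t knockdown cells carried the shUbe2t #1 or the shUbe2t #2 adenovirus and were profiled with S9.6. All 4 therefore came from virus-treated cells of 1 line, and neither the time after infection nor the amount of UBE2T left is stated in the sources used here. The label says that no primary antibody was used in the fourth library, whereas its peak names begin with IgG. Peak lists of genomic DNA measure no transcript, so neither the knockdown nor the identity of the cells could be checked from them. Of 20 pluripotency genes looked up, such as Pou5f1, Sox2 and Nanog, 0 lay at a gained region, where 1.1% of all protein-coding genes did, so that the list is too short to read anything from this. No library with its hybrids removed was analysed here, so a called interval was not shown to be an R-loop. Since no condition was repeated, conditions were described and not tested. Bounds after a share are its exact (Clopper-Pearson) interval at 95% confidence, and reflect counting error alone.

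An R-loop forms when RNA pairs with one strand of the DNA duplex and leaves the other unpaired, most often as the transcript being made folds back behind RNA polymerase. In mammalian cells R-loops are known at CpG-island promoters, where transcription of G-rich RNA favours a stable hybrid, and at the ends of genes. UBE2T is the E2 enzyme that works with the Fanconi anaemia core complex to attach ubiquitin to FANCD2 and FANCI, a step in the repair of DNA crosslinks and of stalled replication forks.

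Promoter sequence comes first because most gained regions lay at gene starts. RefSeq promoter sequences (GRCm38.p6, the same build as mm10) were used, each from 250 bases before to 50 after a transcription start. The stretches below are the parts of 8 promoters that lay inside a gained region, before the start and outside annotated genes. They came from the 5 highest-ranked regions that had at least 60 such bases and from 3 more in rank order that held a GC box. The sequences are printed 5′ to 3′ on the strand of the gene, and capitals mark GGGCGG, the GC box bound by Sp1-type factors, or its complement CCGCCC.
Inpp5f (chr7:128611115-128611180, plus strand): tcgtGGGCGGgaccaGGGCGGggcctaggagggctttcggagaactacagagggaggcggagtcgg
Avl9 (chr6:56714674-56714838, plus strand): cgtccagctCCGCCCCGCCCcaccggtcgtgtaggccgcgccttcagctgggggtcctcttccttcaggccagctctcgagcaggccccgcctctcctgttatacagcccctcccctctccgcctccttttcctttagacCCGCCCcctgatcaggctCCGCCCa
Acss2 (chr2:155517793-155518042, plus strand): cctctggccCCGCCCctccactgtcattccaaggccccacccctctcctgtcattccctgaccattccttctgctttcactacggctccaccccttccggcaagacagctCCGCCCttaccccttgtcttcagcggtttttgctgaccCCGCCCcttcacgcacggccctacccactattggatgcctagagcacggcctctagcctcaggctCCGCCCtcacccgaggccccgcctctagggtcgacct
Utp18 (chr11:93885767-93885849, minus strand): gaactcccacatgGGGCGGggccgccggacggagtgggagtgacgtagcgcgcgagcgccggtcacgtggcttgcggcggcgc
Gm10614 (chr8:120589113-120589176, plus strand): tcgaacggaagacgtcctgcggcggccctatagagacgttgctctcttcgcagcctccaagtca
Nub1 (chr5:24685565-24685814, plus strand): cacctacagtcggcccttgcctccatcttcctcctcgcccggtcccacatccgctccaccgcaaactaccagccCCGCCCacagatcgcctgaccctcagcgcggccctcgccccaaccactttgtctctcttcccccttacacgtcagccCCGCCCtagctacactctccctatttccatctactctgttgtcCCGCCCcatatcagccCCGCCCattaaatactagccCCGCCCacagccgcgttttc
Samd4b (chr7:28436295-28436441, minus strand): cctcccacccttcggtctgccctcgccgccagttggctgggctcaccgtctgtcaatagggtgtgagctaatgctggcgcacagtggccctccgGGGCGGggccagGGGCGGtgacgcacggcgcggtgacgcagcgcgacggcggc
Anapc4 (chr5:52833885-52834100, plus strand): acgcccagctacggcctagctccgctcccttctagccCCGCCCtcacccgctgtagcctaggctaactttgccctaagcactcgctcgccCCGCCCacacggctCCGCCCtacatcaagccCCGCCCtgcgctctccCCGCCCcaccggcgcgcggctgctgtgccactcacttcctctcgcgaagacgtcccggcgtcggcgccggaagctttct
Copies of the box numbered 5 at Nub1 and Anapc4, 4 at Avl9 and Acss2, 2 at Inpp5f and Samd4b, 1 at Utp18, and 0 in the stretch of Gm10614, a predicted gene that starts beside Gins2. At Avl9 the first pair of copies shares a base.

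A gained region overlapped the promoter of at least 1 gene at 132 of 212 regions (62.3%, 55.4 to 68.8), which gave 132 promoters, 1 per region. Chromosome 18 was left out of both numbers, since the promoter table has no entry there. In all, 177 of the 32851 promoters in the table were overlapped (0.539%). The 132 promoters were rich in G and C, with a median of 65.5% against 52.7% over all promoters. They held a median of 24 CpG dinucleotides in 300 bases, against 7 over all. CpG-rich sequence, meaning at least 50% G and C with an observed over expected CpG of at least 0.6, made up 87.9% of them (81.1 to 92.9) and 33.5% of all promoters. A GC box stood in 116 of the 132 (87.9%) and in 35.7% of all promoters. The same share was 80.5% at the 845 promoters overlapped by all other S9.6 regions free of no-antibody intervals, whose median G and C was 64.7% and of which 81.9% (79.1 to 84.4) were CpG-rich. The intervals of the CpG-rich shares overlap between gained regions and the rest.

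Promoters were searched on both strands for 9 motifs and a G-quadruplex form, and 8 of the motifs are described here. CCAAT, the box bound by NF-Y, was found in 56.8% of gained promoters, 55.1% of those at other S9.6 regions and 37.4% of all. CCGGAAG, the core bound by ETS factors, was found in 16.7%, 16.0% and 8.86% in the same order. TATAAA went the other way, at 4.55%, 4.14% and 13.6%. The CRE (TGACGTCA) stood at 3.79%, 3.08% and 1.79%, and the E-box (CACGTG) at 6.82%, 10.4% and 7.15%. The NRF1 motif was in 0 of the 132 and in 0.971% of all. A G-quadruplex form, 4 runs of at least 3 G with loops of 1 to 7 bases, was found in 29.5% of gained promoters (21.9 to 38.1), 32.1% at other S9.6 regions and 18.6% of all. At regions of all 3 S9.6 libraries the share was 43.0% (32.8 to 53.7). The median GC skew, (G − C)/(G + C) on the strand of the gene, was 0.0348 at gained promoters (quartiles -0.119 and 0.152), 0.0189 at other S9.6 regions, 0.05 at regions of all 3 S9.6 libraries and 0.0128 over all promoters, differences that are small beside the quartiles. These are matches to letters and do not show that a factor bound.

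**Figure D1:**
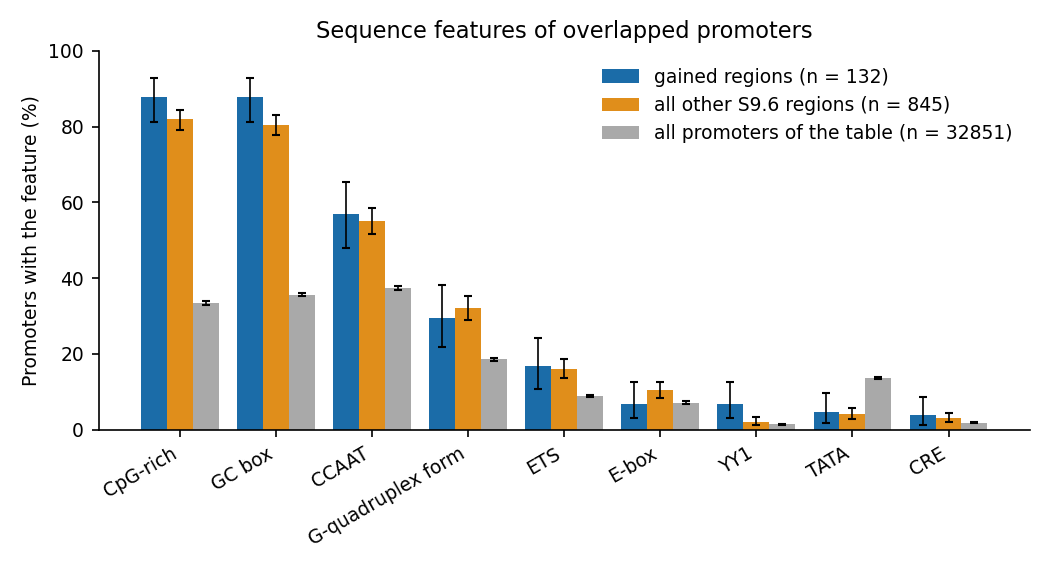
Share of promoters with each sequence feature (vertical axis, percent) for the 132 promoters overlapped by gained regions, the 845 at all other S9.6 regions and all 32851 promoters of the table; whiskers are exact 95% binomial intervals. Both sets of S9.6 promoters stand above all promoters for CpG-rich sequence and the GC box, and the YY1 motif reads 6.82%, 2.13% and 1.40%.

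AAGATGGCG, the motif of YY1, a zinc finger factor that binds near transcription starts, had the largest ratio to the other S9.6 regions among the motifs found in at least 5 promoters. It stood in 9 of 132 gained promoters (6.82%, 3.16 to 12.5), in 18 of 845 at other S9.6 regions (2.13%, 1.27 to 3.35) and in 461 of all 32851 (1.40%). The 9 genes were Hspbp1, Dnajc7, Nup88, Rab22a, Ube3a, Maml1, Apip, Hic2 and Atp5j. The motif is singled out after its counts were seen, out of 10 forms searched, and no test was made. In 5 of the 9 it lay on the strand of the gene just after the start, with its first base at +13 in Hspbp1, +15 in Maml1, +20 in Nup88, +21 in Dnajc7 and +22 in Rab22a. That placement held for 5 of 132 gained promoters (3.79%, 1.24 to 8.62), 10 of 845 at other S9.6 regions (1.18%, 0.569 to 2.17) and 209 of all (0.636%), so the intervals overlap. The windows of 29 bases, with the motif in capitals, show the letters around it on the strand of the gene.
Hspbp1 (chr7:4684951-4684979, minus strand): atttccggtaAAGATGGCGgcgcccagta
Maml1 (chr11:50292304-50292332, minus strand): aaacaattttAAGATGGCGgcggcagcgg
Nup88 (chr11:70969936-70969964, minus strand): ctgttagttcAAGATGGCGgctgccgtgg
Dnajc7 (chr11:100619589-100619617, minus strand): tcccggcggtAAGATGGCGgctaccgcgg
Rab22a (chr2:173659856-173659884, plus strand): ctggcgtcccAAGATGGCGgcggcggtag
Ube3a (chr7:59228523-59228551, plus strand): gcccagtctcAAGATGGCGacgatgctgg
Hic2 (chr16:17233575-17233603, plus strand): acaagcttccAAGATGGCGcggagcgggc
Atp5j (chr16:84835046-84835074, minus strand): aagtgtaggaAAGATGGCGgagtcttagc
In the Rab22a window the motif lay outside the gained region, whose edge was 6 bp from the gene, and in the other 7 windows it lay inside. A further copy at Rab22a, on the other strand at -226, lay inside. The copy at Apip, not shown, was on the other strand at -231 and lay outside its gained region. Hspbp1 codes for a cochaperone of HSP70, Maml1 for a Notch coactivator, Nup88 for a nuclear pore protein and Dnajc7 for a J-domain cochaperone.

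The 3 S9.6 libraries were close in depth and the no-antibody library was shallower. Depth was read from the lowest local background in a list, which grows with the fragments sequenced if peaks were called against the library itself. It was 1.31 fragments in shCtrl, 1.21 with shUbe2t #1, 1.23 with shUbe2t #2 and 0.772 without antibody, or 92.2%, 93.6% and 58.7% of shCtrl. The number of fragments per library is unknown. The shCtrl list had 1263 intervals, the hairpin lists 1519 and 1640, and the no-antibody list 516. A region could therefore be free of a no-antibody interval in part because that library was shallower, and this was not tested.

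Fold enrichment, the authors' ratio of the summit to its local background, and q chose the regions, so they are described only. Gained regions stood in the middle of their lists by fold. Fold with shUbe2t #1 ran from 1.99 to 7.68 with a median of 4.70 (quartiles 4.12 and 5.51), and with shUbe2t #2 from 2.22 to 10.2 with a median of 4.65 (4.07 and 5.25). Those medians stood at the 45.0th and 41.0th percentile of all intervals in the lists. The summit pileup, the number of fragments over the highest point solved from fold and p, had a median of 15 with shUbe2t #1 and 14 with shUbe2t #2. A Poisson count of 15 has an exact 95% interval of 8.40 to 24.7, so the height of a single region was known poorly.

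The rule asked for a call in both hairpin lists, whose folds spanned much the same narrow range, so near-equal folds are a description and no sign that single regions agreed. The folds were within 1.5 times of each other at 200 of 224 regions (89.3%), and shUbe2t #2 had the higher fold at 113 (50.4%). Over the 224 regions the rank correlation of the folds was 0.243 (Spearman) and the correlation of their log2 values 0.366 (Pearson). In the 210 regions of all 3 S9.6 libraries the rank correlation was 0.497. Points share their library, and both sets were chosen by calls in these libraries. Summits of the hairpins lay within 50 bp of each other at 98 regions (43.75%), within 200 bp at 197 (87.9%) and more than 300 bp apart at 9 (4.02%). The median gap was 58 bp in gained regions, which were 383 bp wide in the median, and 47.5 bp in regions of all 3 libraries, which were 446.5 bp wide.

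**Figure D2:**
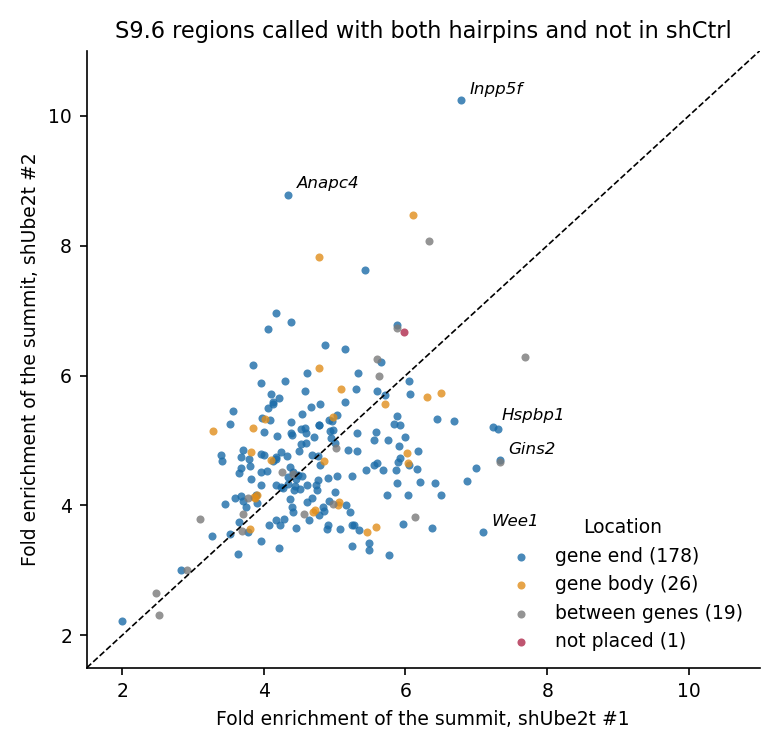
Fold enrichment of each gained region with shUbe2t #1 (horizontal axis) and shUbe2t #2 (vertical axis), 1 point per region, coloured by location; the dashed line marks equal folds. The cloud is centred near 4.7 and 4.65, Inpp5f reaches 6.78 and 10.2, and Anapc4 and Wee1 lie far to either side of the line.

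The strongest pair of folds was at Inpp5f, which codes for a phosphatase of inositol lipids. Its region (mm10 chr7:128610999-128611416) overlapped the start of the gene and held 15 fragments with shUbe2t #1 and 25 with shUbe2t #2, for folds of 6.78 and 10.2, with no interval in shCtrl or without antibody. The summits were 15 bp apart. The largest difference in favour of shUbe2t #2 was at Anapc4, a subunit of the anaphase-promoting complex, with 13 and 25 fragments and folds of 4.35 and 8.78. It was the 1 region whose folds differed by more than 2 times. Next came S100pbp, with 13 and 22 fragments (folds 4.17 and 6.97), and G3bp1, a stress granule protein, with 15 and 26 (4.06 and 6.72). In favour of shUbe2t #1, Wee1, the kinase that holds back CDK1, had 22 and 12 fragments (7.10 and 3.59). Bag1, a cochaperone, had 19 and 11 (6.37 and 3.66). Zfp143, a zinc finger factor of promoters, had 23 and 13 (5.77 and 3.24), and lay 59871 bp from the region of Wee1. Counting error is wide at these heights. At Anapc4, the exact Poisson interval of 13 fragments is 6.92 to 22.2 and that of 25 is 16.2 to 36.9.

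Each summit was also set against the smallest pileup that would have passed the lowest p of the shCtrl list at the local background of the region, after scaling by depth. This ratio ran from 0.976 to 2.44 with shUbe2t #1 (median 1.41) and from 0.962 to 2.97 with shUbe2t #2 (median 1.39). The smallest callable pileup was 11 fragments in the median. Both hairpins reached 1.5 times that level at 36 regions (16.1%), among them Inpp5f, Cenpc1, Hspbp1, Dtl, Mex3b, Avl9, Acss2, Nfya and Per1, and at 0 regions did both reach 2 times. At 15 (6.70%) both were below 1.2 times. At 9 (4.02%), including Rhoa, Hic2, Apip, Gabpa and Ntmt1, 1 hairpin was below the level itself. A summit of the size seen with that hairpin would not have been called in shCtrl. One of the size seen with the other hairpin would have been, since at 0 regions were both below the level. Why shCtrl had no call there was not tested.

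**Figure D3:**
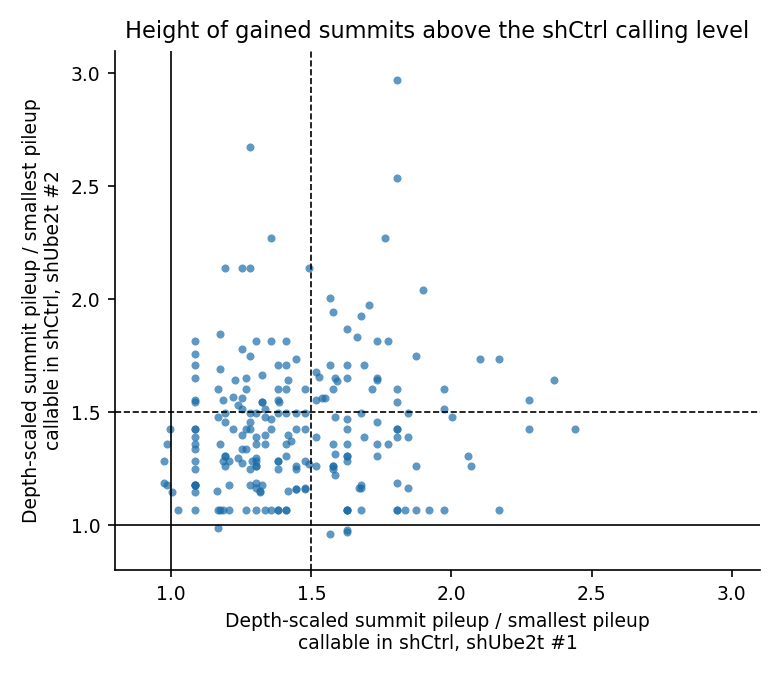
Summit pileup scaled to the depth of shCtrl and divided by the smallest pileup callable there, for shUbe2t #1 (horizontal axis) and shUbe2t #2 (vertical axis), 1 point per gained region. Solid lines mark 1 and dashed lines 1.5; 36 of 224 points lie in the upper right corner past both dashed lines, and 9 lie below 1 on 1 axis.

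At the edge of the rule the values ran into each other. The 3 regions just inside, by the lower −log10 q of both hairpins, were Hic2 (1.32; folds 3.42 and 4.69), Rhoa (1.34; 5.48 and 3.42) and Cecr2 (1.36; 5.49 and 3.31). Just outside, with a weak shCtrl call as well, were Gatad2a (shCtrl −log10 q 1.37 and fold 3.60, against 6.48 and 8.17 with the hairpins) and Etf1 (1.39 and 3.35, against 4.24 and 3.95). A further 11 gained regions (4.91%) had a shCtrl interval within 1000 bp. The nearest was 2 bp away at Ripk2, followed by 35 bp at Gm40345 and 44 bp at AA386476. The median distance to the nearest shCtrl interval was 507196 bp.

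Of the 223 gained regions on placed chromosomes, 178 lay within 1000 bp of a gene end (79.8%, 73.9 to 84.9), 26 in gene bodies (11.7%, 7.76 to 16.6) and 19 between genes (8.52%, 5.21 to 13.0). The gene-end share was 61.6% at regions of all 3 S9.6 libraries (125 of 203, 54.5 to 68.3). It was 62.7% at regions of shUbe2t #1 alone (58.6 to 66.6) and 64.4% at those of shUbe2t #2 alone (60.7 to 68.1). At regions of shCtrl alone it was 36.8% (156 of 424, 32.2 to 41.6), and at no-antibody intervals 14.8% (70 of 472, 11.7 to 18.4). Regions of shCtrl and shUbe2t #1 stood at 50% (39 of 78, 38.5 to 61.5), and those of shCtrl and shUbe2t #2 at 56.0% (61 of 109, 46.1 to 65.5). Regions within a library are no replicates of a condition, so the intervals give no test between classes. Gained regions had a median width of 383 bp, against 236.5, 221 and 216 bp for the regions of a single library. Regions of shCtrl and shUbe2t #1 had 362.5 bp, those of shCtrl and shUbe2t #2 317.5 bp and those of all 3 libraries 446.5 bp. A region merged from several libraries is at least as wide as each interval in it. The part that width plays in the shares was not tested. When every S9.6 list was held to one length, the share was 80.7% at gained regions and 38.9% at regions of shCtrl alone.

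**Figure D4:**
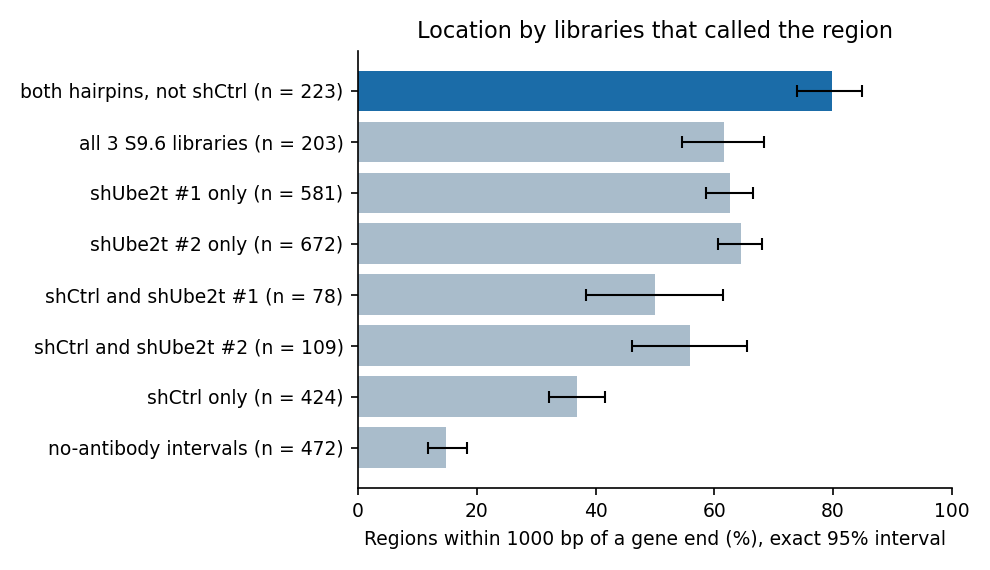
Share of regions within 1000 bp of a gene end (horizontal axis, percent), by the libraries that called them, with exact 95% binomial intervals as whiskers. The gained regions, at 79.8%, stand above every other class, and the no-antibody intervals, at 14.8%, lie lowest.

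The gene end was the transcription start in nearly every case where strand could be read. Of the 141 regions with a strand for their gene, 137 lay at the start alone, 3 at the 3′ end alone and 1 at both. The 3 were at predicted genes or at Speer4d, and the 1 at 2700012I20Rik. Of the 3, the region assigned to the predicted gene Gm46933 also held a transcription start of G3bp2. Starts prevailed likewise at all other S9.6 regions free of no-antibody intervals. There 890 lay at the start alone, 29 at the 3′ end alone and 6 at both. The gene end lay inside the region at 106 of the 178 (59.6%). Protein-coding genes were the nearest at 164 (92.1%) and long noncoding RNA genes at 9. The protein-coding share was 89.3% at all other S9.6 regions, 92.0% at regions of all 3 libraries and 73.7% at regions of shCtrl alone. A start lay within 1000 bp at 154 of 212 regions (72.6%, 66.1 to 78.5), against 52.6% at regions of all 3 libraries and 28.9% at regions of shCtrl alone (24.6 to 33.5). Regions of shUbe2t #1 alone stood at 57.0% and those of shUbe2t #2 alone at 59.4%. Alternative starts within gene bodies added 11 of the 26 gene-body regions, such as Aph1b, Wdr17, Arhgap29, Nbeal1 and Taok1, where the region overlapped a promoter further inside the gene.

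Summits sat mostly just upstream of the start. The median distance was -82 bp (quartiles -207 and 9.25), with negative values upstream, and 117 of 154 summits (76.0%) were within 250 bp. Downstream summits made up 41 of 154 (26.6%). At the 113 regions with starts on 1 strand only, where a neighbour on the other strand cannot blur the side, the median was -106 bp and 26 summits (23.0%) were downstream. Regions of all 3 libraries had a median of -105 bp and 26.5% downstream. Regions of shCtrl alone had a median of -40.0 bp and 39.5% downstream. Regions of shUbe2t #1 alone had a median of -54 bp and 33.4% downstream, and those of shUbe2t #2 alone -56 bp and 31.2%. The share of summits within 250 bp was alike in all these classes. It was 72.5% at regions of all 3 libraries, 75.1% with shUbe2t #1 alone, 78.6% with shUbe2t #2 alone and 72.3% with shCtrl alone. At Inpp5f the summit was at -123.5 bp, at Cenpc1 at -149.5 bp and at Hspbp1 at -75.5 bp. At Dkc1, which codes for the pseudouridine synthase dyskerin, it was at 179.5 bp, and at Dck, deoxycytidine kinase, at 41.0 bp.

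**Figure D5:**
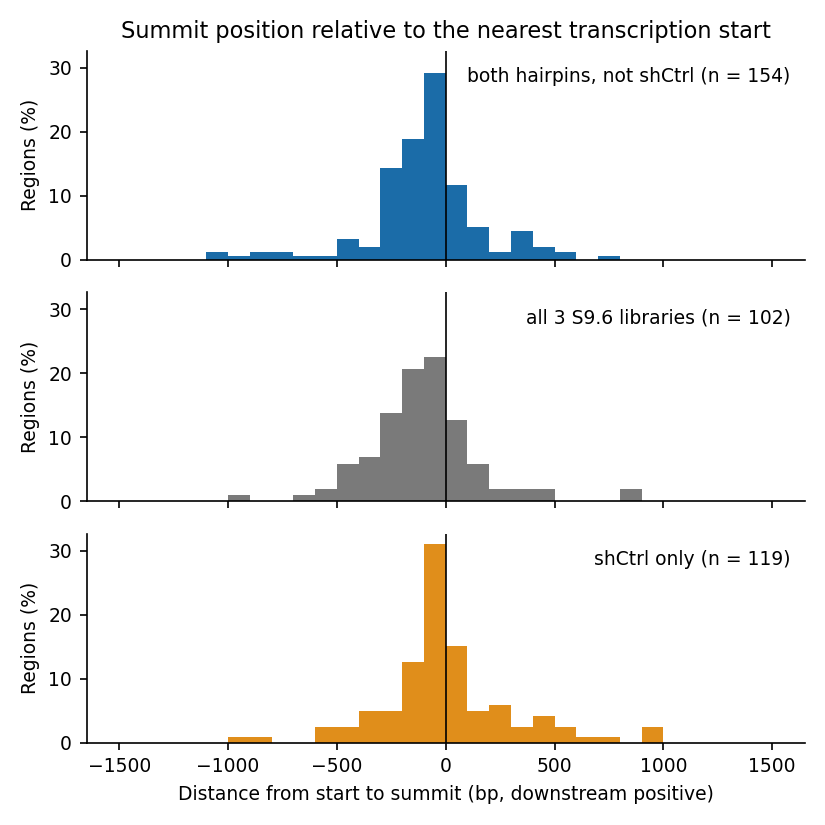
Distance from the nearest transcription start to the summit (horizontal axis, bp, downstream positive) as a percent of regions in bins of 100 bp, for gained regions (154), regions of all 3 S9.6 libraries (102) and regions of shCtrl alone (119). The gained regions peak just upstream of the start, with a median of -82 bp, and 26.6% are downstream.

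Some gained regions lay at paired genes. At 67 of the 178 (37.6%) the region lay near the ends of 2 or more genes, or 45 when predicted genes are left out. No such share of other regions is given here, so the 37.6% cannot be called high or low. A start on the opposite strand within 1000 bp stood beside 36 of 132 overlapped promoters (27.3%, 19.9 to 35.7). The share was 22.6% at other S9.6 regions, which lies inside that interval, and 11.3% of all promoters. Dtl and Ints7 are such a pair, a receptor of the CUL4 ubiquitin ligase that limits CDT1 and a subunit of the Integrator complex. Their region held 20 and 15 fragments (folds 6.69 and 5.30). Mbtd1 and Utp18, the latter a factor of ribosomal RNA processing, shared a region of 22 and 24 fragments (5.30 and 5.79). Nfya, a subunit of the CCAAT-binding factor, and Oard1 shared one of 19 and 18 (5.59 and 5.14). Mkks and Slx4ip had 17 and 14 (5.92 and 5.24), and Zranb3, an annealing helicase of stalled forks, and R3hdm1 had 13 and 14 (5.04 and 5.40). The counts of both hairpins were within 5 fragments of each other at all of these pairs. Both counts had to pass a call, and most gained regions had counts in a narrow range. The closeness is thus a description and no sign that the hairpins agreed.

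Among genes of the cell cycle and replication, a few stood at gained regions. In all, 289 of 49943 placed genes (0.579%) and 240 of 21887 protein-coding genes (1.1%) had a gained region at the body or within 1000 bp. Of 58 genes of the centromere, kinetochore and mitosis, 4 did (6.90%). These were Anapc4, the centromere protein Cenpc1 with 19 and 18 fragments (6.06 and 5.72), the spindle checkpoint gene Mad2l1 with 13 and 11 (4.76 and 4.76) and the kinetochore gene Mis12 with 14 and 15 (4.55 and 5.41). Regions of shUbe2t #2 alone also stood at 4 of the 58, those of shUbe2t #1 alone at 2 and those of shCtrl alone at 0. Of 47 replication genes 2 did, Dtl and Gins2, a subunit of the replicative helicase, with 21 and 16 fragments (7.33 and 4.70). Of 67 chromatin regulators 3 did, the H3.3 chaperone gene Daxx (14 and 11; 4.78 and 3.85), the acetyltransferase gene Kat7 (13 and 12; 3.78 and 3.59) and the histone-binding gene Rbbp4 (11 and 11; 3.75 and 3.97). These lists are short, their members were chosen with results of these data known, and the shares rest on 2 to 4 genes each.

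Lists of repair and transcription genes gave counts of 0 or 1, which cannot be told from the 1.1% of all protein-coding genes at lists this short. Of 28 Fanconi and crosslink repair genes, the pathway of the targeted enzyme, 1 stood at a gained region. It was Fancc of the core complex, in its body 551.5 bp past an internal start, with 15 and 12 fragments (folds 6.02 and 4.81). Of 39 genes of R-loop processing, such as helicases and RNase H subunits, 0 did, while regions of shUbe2t #1 alone stood at 2, those of shUbe2t #2 alone at 3 and those of shCtrl alone at 0. A count of 0 at gained regions was also found among 41 genes of DNA damage signalling and break repair, 30 highly transcribed housekeeping genes, 26 very long or fragile-site genes and 30 replication-dependent histone genes. RNA polymerase II and Integrator genes gave 1 of 62 (Ints7), and ubiquitin genes 1 of 61. The last was Ube3a, an imprinted ubiquitin ligase gene and the 1 of 30 imprinted genes, with 12 and 10 (4.74 and 4.23). Of 30 immediate early and p53 response genes, Egr1 had 22 and 19 fragments, 998 bp from the region (4.08 and 3.70).

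Gene families defined by their symbols gave small counts too, to be read beside 1.1% of all protein-coding genes and 0.579% of all placed genes. Of 71 Rab GTPase genes, which direct vesicle traffic, 4 had a gained region (5.63%). Rab39 held 17 and 11 fragments (5.88 and 4.35), Rab5b of early endosomes 16 and 13 (5.25 and 4.46), Rab8a 15 and 14 (5.59 and 4.66) and Rab22a 13 and 15 (4.38 and 4.60). The regions of all 3 libraries stood at 3 Rab genes and those of shUbe2t #2 alone at 4. Ubiquitin-specific proteases gave 2 of 58, Usp5 at a region shared with Cdca3 (31 and 26; 5.99 and 5.06) and Usp9x (9 and 13; 4.13 and 5.60). RNF ligases gave 2 of 84, Rnf5 (24 and 18; 6.16 and 4.57) and Rnf44 (11 and 16; 3.53 and 5.25). Zinc finger genes gave 3 of 472, Zfp143, Zfp367 (11 and 17; 3.57 and 5.45) and Zfp36l2 (17 and 14; 4.17 and 3.77). Solute carriers gave 4 of 376, Slc1a4, Slc25a41, Slc35f5 and Slc5a6, with folds between 4.17 and 6.21. Tmem genes gave 3 of 238 (Tmem123, Tmem231 and Tmem256). As shares, ubiquitin-specific proteases stood at 3.45%, RNF ligases at 2.38%, zinc finger genes at 0.636%, solute carriers at 1.06% and Tmem genes at 1.26%. Each share rests on 2 to 4 genes, and none was tested. RNA helicases gave 1 of 53 (Ddx42, 1.89%), WD repeat genes 1 of 64 (Wdr17, 1.56%) and Integrator genes 1 of 15 (6.67%). MicroRNAs gave 1 of 1169 (Mir707, 0.0855%) and predicted tRNA genes 3 of 403 (0.744%). Olfactory receptors (0 of 1118), vomeronasal receptors (0 of 357), cytosolic ribosomal proteins (0 of 101), small nucleolar RNAs (0 of 133), F-box genes (0 of 78) and E2 enzymes (0 of 38) gave none, nor did mitochondrial ribosomal proteins (0 of 78), tripartite motif genes (0 of 68), 5S ribosomal RNA genes (0 of 69), NADH dehydrogenase subunits (0 of 51) or kinesins (0 of 38).

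Among the other highest-ranked regions at gene ends, those named next had folds between 4.38 and 7.31. Acss2, which makes acetyl-CoA from acetate, held 16 and 20 fragments (5.15 and 6.40). Pclo, a scaffold protein of the presynapse, held 12 and 13 (5.33 and 6.03), and Ddrgk1, at a region shared with Itpa, held 16 and 17 (5.59 and 5.77). St3gal3, a sialyltransferase gene, held 20 and 17 (6.18 and 4.84). Ptpn12, a tyrosine phosphatase gene, held 13 and 15 (5.15 and 5.59). Nub1, which regulates NEDD8, held 16 and 15 (5.90 and 4.91), and Samd4b, at a region shared with Gmfg, held 19 and 11 (6.99 and 4.58). Fam221a, Ggnbp2, Sertad3, Pja2, Arhgap12, Rbpms and Rxylt1 lay in the same range, as did Mex3b, Avl9, Slc35f5, Dkc1 and Dck. None of them stood in a pathway list.

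The 26 regions in gene bodies and the 19 between genes had folds like those at gene ends. The medians were 4.65 and 4.64 at gene ends, 4.82 and 4.76 in bodies, and 4.57 and 4.12 between genes. The highest-ranked in bodies were Ppp2r3c, Pkp4, Scfd2, Aph1b (15 and 17 fragments; 5.71 and 5.56) and Wdr17 (10 and 17; 4.78 and 7.83). Between genes the highest were chrX:4136214-4136462 (6.33 and 8.07), chr6:114553121-114553402 (7.68 and 6.28), chrX:124120286-124120730 (5.88 and 6.73), chr14:7248568-7248895 (5.60 and 6.25) and chr6:49217970-49218318 (5.63 and 6.0). The widest gained regions were Gm2237 (852 bp), Arhgap12 (800 bp) and Sdccag8 (793 bp), and 1 region lay on an unplaced sequence (folds 5.98 and 6.67).

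Regions at near-identical copies are uncertain, since the treatment of reads with several matches is not stated in the sources used here. This holds for those near the Speer cluster of chromosome 5, the predicted genes of chromosome 14, the pair on chromosome 4 and the pseudogene Fau-ps2. Fau-ps2 had 72 fragments with each hairpin over local backgrounds of 35.6 and 31.9, for the lowest folds of all, 1.99 and 2.22, and lay 117 bp from a shCtrl interval. It was 1 of 22 gained regions (9.82%) whose background in either hairpin library was over 3 times the lowest of that library, of which 12 were at gene ends, 8 between genes and 2 in bodies. Mnt, a MAX-binding repressor, was among them with 31 fragments in both libraries over 7.30 and 6.74 (folds 3.86 and 4.13). Without these 22 the gene-end share was 82.6%.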

How the data were processed

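S9.6 CUT&Tag peak lists of 3 libraries and 1 no-antibody list were used, 1 list per library. The submitters' processing notes name mm10, MACS2 2.1.2, Trimmomatic and a Bowtie with version 0.7.12. Step order, thresholds, duplicates and control use were not given in the sources used here. Per the labels' protocols, libraries had 11 PCR cycles, so fragments may not be independent molecules. The deposited fold is a ratio of summit to local background, the deposited p and q are on a −log10 scale, and the deposited summit position is an offset in bp. Several summits can share an interval, which took the values of its best by p.

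Pileups and backgrounds were solved from fold and −log10 p, and all solved pileups were whole within 0.05. Depth and callable pileups assume that each background came from the library itself, which no source states. Solving and merging were tested on simulated data. Python 3.11.15, pandas 2.3.3 and SciPy 1.17.1 were used. Positions count from 1 on mm10. The RefSeq gene table (GRCm38.p6) has no exons, and exons, introns and UTRs were not told apart. Strand came from the RefSeq promoter table of 27025 genes. Regions were assigned to the closest gene end up to 1000 bp away, or else to the longest gene holding them, with predicted genes last.

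The regions and gene lists were chosen with earlier results of these data known. Named genes were the 30 highest-ranked regions at gene ends by mean percentile of fold, passing over regions whose gene is a predicted one (Gm, Rik or LOC names, some of them ranked higher), the 5 highest in bodies and between genes, the 3 with the largest fold difference in each direction, the 3 widest, and list or family members. Other genes named were chosen after their values were seen, as were the start windows of the YY1 motif. Of 637 list names 634 matched. Some regions and list results are not reported here. Alternatives changed q, list length, merging, overlap, distance and gene class.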

Additional observations from a re-analysis of the deposited data

How the results depend on the processing

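No paired analysis was possible because each condition has 1 library, and for the same reason no library could be left out in turn. The number of gained regions, 224, was 73 at a −log10 q of at least 5. Each q cut was applied to every list, those of shCtrl and of no antibody included. Regions with a weaker shCtrl or no-antibody call could thus enter, and the 73 are not a subset of the 224. Of the 224, 31 had a −log10 q of at least 5 with both hairpins. The number of gained regions was 141 with equal numbers of intervals per S9.6 list. At that equal length, 83 regions were of shCtrl and shUbe2t #1 and 100 of shCtrl and shUbe2t #2. With 1 hairpin required in place of 2, an alternative chosen after the data were seen, the number of gained regions was 810 for shUbe2t #1 and 903 for shUbe2t #2. Both of these wider sets include the 224, since nothing was asked of the other hairpin. Other settings gave 156 to 234. The gene-end share, 79.8%, was 71.8% at the stricter q (51 of 71) and 73.1% within 500 bp. In the wider sets that required only shUbe2t #1 or only shUbe2t #2, the share was 67.4% and 68.3%. It was 74.4% to 82.6% under the others, which include leaving out regions of high local background, also chosen after the data were seen. CpG-rich promoters made up 88.2% for protein-coding genes alone, against 45.1% of all such promoters. Low pileups limit how well any single region is known.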

Other observations

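Some gained regions lay close to each other, which was not compared with other S9.6 regions and is no sign of clustering. Within 100000 bp of each other, there were 8 pairs. These included Nup88 and Mis12 (49156 bp apart), Zfp367 and Habp4 (7658 bp), Relb and Tomm40 (86581 bp) and Rnf44 and Tspan17 (94891 bp), besides Zfp143 and Wee1. The remaining 3 of the 8 pairs lay where near-identical copies make the regions uncertain, on chromosome 4 (32598 bp) and on chromosome 5 (20922 bp, and 36799 bp from the region of Speer4d). Chromosome 11 held 28 gained regions (12.6% of those placed, against 10.3% of all other S9.6 regions free of no-antibody intervals), chromosome 5 held 24 (10.8% against 6.53%) and chromosome 7 held 23 (10.3% against 6.29%). Chromosome Y held 0. No test was made of these counts.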
